A study of Mus musculus with 12 samples.

Results

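The data described here are the nascent RNA profiles of mouse liver at the start of the light phase, Zeitgeber time 0 (ZT0, lights on), and 4 hr later (ZT4). Members were chosen by their time label: replicates 1 and 2 of ZT0 and replicates 1 and 2 of ZT4, which are 4 of the 12 libraries of a series with 6 time points done in duplicate. Genes were kept when their signal was over 6 reads per base pair (rpbp) in at least 1 of these 4 libraries, which held for 5226 of the 21490 gene symbols. All libraries came from C57BL/6 mice, adult (3-6 months) and male by the methods, which had been kept in 12 hr of light and 12 hr of dark (LD12:12) for at least 2 weeks. No mutation was used, and the only drug named in the methods for these mice is isoflurane, as anesthesia before decapitation. The replicates are described as separate samples, and how many livers entered a library is not given in the sources used here.

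Nascent-Seq sequences RNA still bound to chromatin in purified nuclei, with the polyadenylated RNA removed, and so reads transcription rather than the pool of finished mRNA. In the liver the circadian clock is a loop in which CLOCK and BMAL1 (gene Arntl) activate the Period, Cryptochrome, REV-ERB and PAR bZIP genes, whose products then act back on the loop or on output genes. Mice feed mostly in the dark, and dawn is when the liver passes from the fed to the fasting state. Feeding raises transcription of genes for fat synthesis, glucose use and protein folding in the endoplasmic reticulum (ER), and fasting raises that of genes for glucose production and amino acid breakdown.

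After 4 hr of light, most tested protein folding genes of the ER and many chaperones of the cytosol and genes of fat synthesis had lower nascent signal than at lights on, whereas Pck1, Upp2, Nr1d1, the sterol exporters Abcg5 and Abcg8 and many amino acid enzymes had higher signal. These are differences in levels. No single gene passed an adjusted p of 0.05 when ZT4 was compared with ZT0 by limma, which was run on log2(rpbp + 1) with p-values adjusted by Benjamini and Hochberg (0 of 5226 genes, 0%, in both directions together, 0% higher and 0% lower), and the smallest adjusted p was 0.139. At an unadjusted p under 0.05 limma gave 408 genes, of which 225 (4.31% of those tested) were higher at ZT4 and 183 (3.5%) were lower. In that fit, 4 other libraries (ZT12 and ZT16, also sequenced on 1 lane) helped to set the spread. Fitted on the 4 libraries of ZT0 and ZT4 alone, an alternative added after seeing the data, limma gave 50 genes with an adjusted p under 0.05, 16 higher (0.306%) and 34 lower (0.651%) at ZT4. Of the 50, 43 also had an unadjusted p under 0.05 in the 8-library fit. That fit holds the same 4 libraries and gives the same differences, so this is no separate check. The 50 became 0 when the libraries were rescaled by the median ratio, and 0 to 7 without any single library.

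By values alone, both libraries of ZT4 lay above both of ZT0 for 1140 genes (21.8%) and below both for 862 (16.5%). For 247 of the higher genes (4.73% of all tested) and 230 of the lower (4.4%) the means also differed by more than 1.5-fold. With 2 libraries against 2 an exact permutation test cannot give a p below 0.333. The median difference over all tested genes was 0.05 on the log2 scale (quartiles -0.14 and 0.23), and the list medians below are to be read against it, as are the list counts against the shares of all tested genes just given. The median absolute difference between replicates of the same time point was 0.23 on this scale.

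The labelled tissue was checked by cell type markers. Summed over 12 hepatocyte markers, the signal was 1325.8 and 2262.6 rpbp at ZT0 and 1863.2 and 2024.3 rpbp at ZT4, so that replicate 1 of ZT0 was lowest and the time points overlapped. Markers of other cells were low in all 4 libraries: 37.7 to 45.3 rpbp summed over 11 Kupffer cell and macrophage markers, 37.4 to 40 over 10 endothelial, 12.7 to 14.3 over 10 stellate, 7 to 10.8 over 5 cholangiocyte, 3.2 to 6.7 over 8 lymphocyte, 0.3 to 1.5 over 5 neutrophil (S100a8 and Mpo at 0 in all 4 libraries) and 8.5 to 12.7 over 3 erythroid markers (Slc4a1 at 0). The summed levels of ZT0 and ZT4 overlapped in each of these lists but that of neutrophils (0.9 and 1.5 rpbp at ZT0, 0.3 and 0.7 rpbp at ZT4). The part of hepatocyte marker level or of library in the differences below was not tested, and in a bulk sample fewer cells of a type and less RNA per cell cannot be told apart. The signal summed over all symbols was 118342 and 137521 rpbp at ZT0 and 124540 and 129031 rpbp at ZT4, and read counts cannot be had from it.

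**Figure D1:**
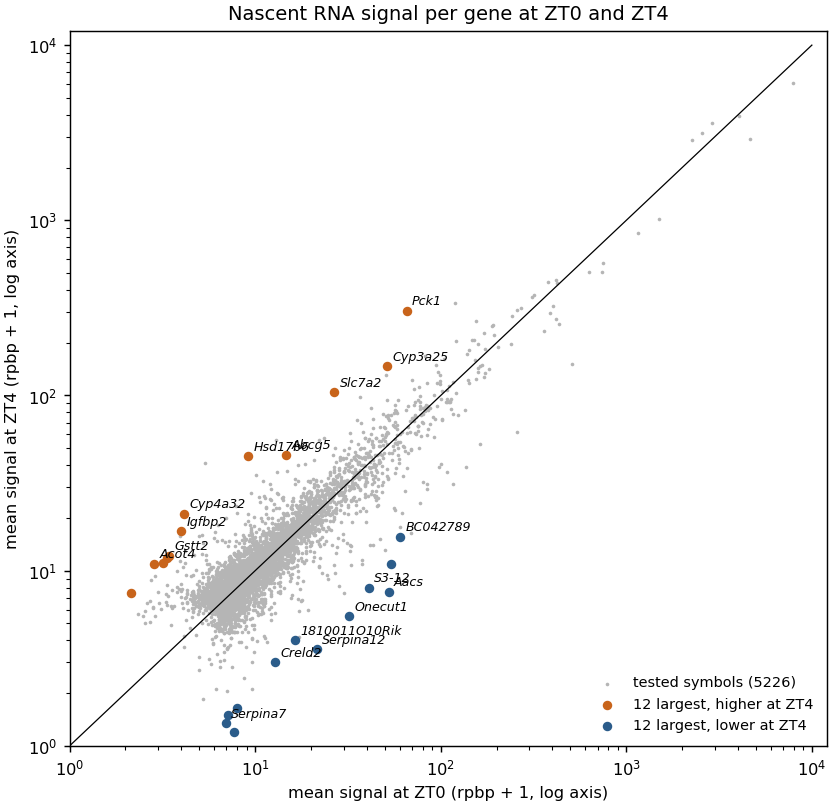
Mean nascent RNA signal of each tested gene at ZT0 (x axis) and ZT4 (y axis), both in rpbp plus 1 on log axes, with the line of equal signal; each grey point is 1 of 5226 genes and the coloured points are the 12 largest differences in each direction outside the clock lists, some of them left unlabelled. Most genes lie along the line, with Pck1 and Slc7a2 above it and Aacs and S3-12 below it.

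The unfolded protein response genes encode the chaperones, disulphide isomerases and regulators that fold secreted proteins in the ER. Of the 24 listed, 18 were tested, and 16 of these had lower signal at ZT4 in both libraries, against 16.5% of all tested genes. The median difference of the 18 was -0.94 on the log2 scale. Signal at ZT4 was higher in both libraries for Atf6 alone (5.2 and 6.3 rpbp at ZT0, 6.8 and 6.9 rpbp at ZT4), a membrane-bound sensor of the response, and the libraries overlapped for Dnajb11. An unadjusted p under 0.05 in limma held for 9 of the 18, all lower at ZT4, beside 3.5% of all genes. In the fit on 4 libraries alone, 8 passed the adjusted threshold, all lower, beside 0.651% of all genes. Pdia6, Creld2 and Armet were over 6 rpbp only at ZT0, so the filter favoured lower signal at ZT4 for them.

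Many of these genes carry an ER stress element in the promoter, the sequence through which ATF6 and XBP1 act. It was searched for on both strands as CCAAT and CCACG 9 bases apart. The RefSeq promoters (GRCm38.p6, 250 bases before to 50 after each start) were found by symbol for 15 of the 18 tested genes and held the element in 6, whose windows around it are shown, 5′ to 3′ on the strand of the gene, because they include the genes of the list with the largest negative differences, Creld2, Pdia6 and Hspa5. Capitals mark the element. Where it reads CGTGG before ATTGG it lies on the opposite strand. Hsp90b1 held 2 sites.
Hspa5, chr2:34772000-34772068, plus strand: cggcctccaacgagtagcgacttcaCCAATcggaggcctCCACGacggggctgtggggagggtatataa
Hsp90b1, chr10:86705508-86705681, minus strand: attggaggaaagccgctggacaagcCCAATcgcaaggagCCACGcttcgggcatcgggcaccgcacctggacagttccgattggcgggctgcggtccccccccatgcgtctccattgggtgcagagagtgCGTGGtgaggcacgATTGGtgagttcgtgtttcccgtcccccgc
Pdia6, chr12:17266466-17266534, plus strand: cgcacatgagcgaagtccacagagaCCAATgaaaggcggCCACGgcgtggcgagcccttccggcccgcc
Calr, chr8:84847050-84847118, minus strand: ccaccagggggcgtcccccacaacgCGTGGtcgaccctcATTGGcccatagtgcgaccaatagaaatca
Canx, chr11:50325775-50325843, minus strand: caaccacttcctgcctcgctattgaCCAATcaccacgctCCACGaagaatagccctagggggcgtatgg
Creld2, chr15:88819495-88819563, plus strand: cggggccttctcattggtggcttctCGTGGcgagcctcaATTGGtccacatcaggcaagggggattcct

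The element was rare: 39 of 32851 promoters (0.119%) and 9 of the 2661 tested genes with a promoter (0.338%) held it. All 9 of these genes had lower signal at ZT4 than at ZT0 in both libraries (16.5% of all tested genes did), and 7 of the 9 passed the adjusted threshold in the 4-library fit (0.651% of all tested genes, lower at ZT4). Acacb, Alg12, Creld2 and Pdia6 were over 6 rpbp only at ZT0, so the filter favoured lower signal at ZT4 for them. A match of letters is a description of the promoter and does not show that a factor was bound. The genes outside the list were Acacb, the acetyl-CoA carboxylase associated with mitochondria, Alg12, a mannosyltransferase of the ER whose promoter window overlaps that of Creld2 and holds the same site, and Syvn1, the ubiquitin ligase of ER-associated degradation. Syvn1 was at 30.5 and 33.1 rpbp at ZT0 and at 13.2 and 12.4 rpbp at ZT4, and Alg12 was at 8.8 and 7.1 rpbp and then 2.6 and 2.7 rpbp. Acacb was at 8.8 and 8.4 rpbp at ZT0 and at 4.9 and 2.9 rpbp at ZT4.

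Hspa5, which encodes the chaperone BiP, was at 46.2 and 52.1 rpbp at ZT0 and at 14.4 and 9.9 rpbp at ZT4, a difference of -1.95 ± 0.66 (SE, log2 scale, limma, adjusted p = 0.526). The 2 libraries of each time point stood close together and far from the other pair. Pdia6, a disulphide isomerase, was at 16.3 and 16 rpbp at ZT0 and at 3.8 and 2.6 rpbp at ZT4 (-2.04 ± 0.68). Creld2, an ER protein of this response, was at 14 and 9.7 rpbp and then 2.5 and 1.5 rpbp (-2.10 ± 0.89). Calreticulin (Calr), which holds calcium and folds glycoproteins, was at 34.2 and 39.3 rpbp at ZT0 and at 13.1 and 7.8 rpbp at ZT4. Its partner calnexin (Canx) was at 14 and 14.8 rpbp and then 8.8 and 6.7 rpbp. Hsp90b1, an HSP90 of the ER with the highest signal of the list, was at 71.8 and 86.7 rpbp at ZT0 and at 35 and 27.5 rpbp at ZT4.

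Hyou1, a large chaperone of the ER, was at 27.9 and 26.7 rpbp at ZT0 and at 8.8 and 5.5 rpbp at ZT4. Armet, the secreted factor also called MANF, was at 11 and 10.1 rpbp and then 3.3 and 2.5 rpbp. Of the regulators, Xbp1, the spliced transcription factor of the response, was at 36.8 and 31.5 rpbp and then 22.3 and 18.1 rpbp. Atf4 was at 20.9 and 26.6 rpbp at ZT0 and at 16.3 and 17.4 rpbp at ZT4, and Ddit3, the factor CHOP of prolonged stress, at 15 and 14.8 rpbp and then 12.7 and 8.5 rpbp. The log2 differences of these regulators were -0.73 for Xbp1, -0.46 for Atf4 and -0.48 for Ddit3. The spread in the 8-library fit included ZT16, where the replicates of Hspa5 were at 76.1 and 13 rpbp, and over all genes the ZT16 replicates were over 1.5-fold apart for 34.3% of genes, compared with 18.5% at ZT0, 12.3% at ZT4 and 18.5% at ZT12.

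**Figure D2:**
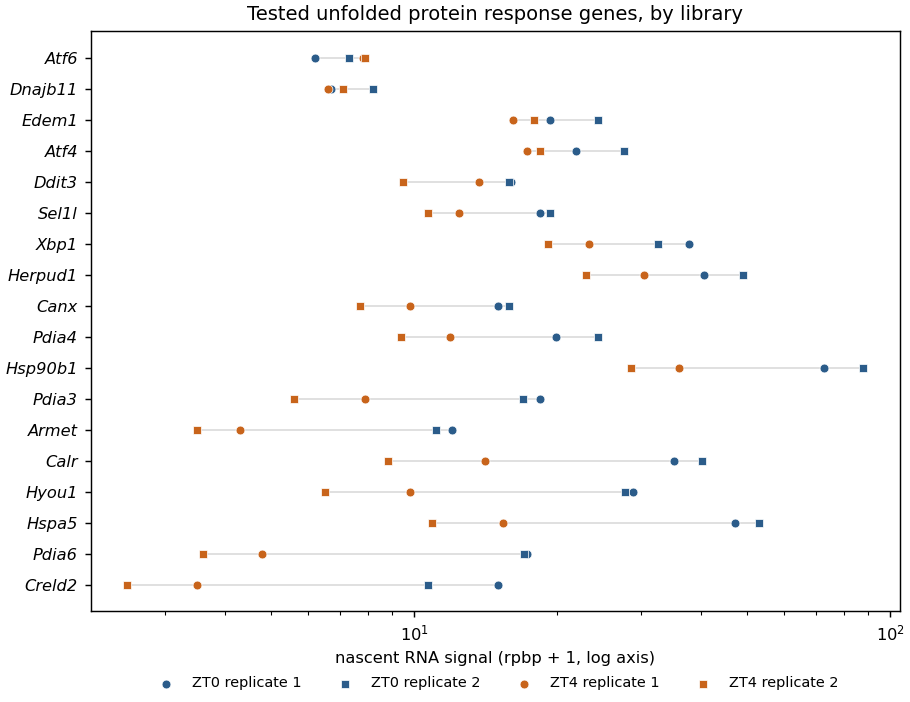
Nascent RNA signal (x axis, rpbp plus 1, log axis) of the 18 tested unfolded protein response genes in each of the 4 libraries, ordered by the log2 difference; blue marks ZT0, orange ZT4, circles replicate 1 and squares replicate 2. The pairs separate with ZT4 to the left for 16 genes, and Atf6 at the top has the opposite order.

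Chaperones of the cytosol had the same direction. Of 13 tested genes of the heat shock and cold-inducible list, 9 were lower in both ZT4 libraries (16.5% of all tested genes were) and 6 had an unadjusted p under 0.05, all lower (3.5% of all genes), with a median of -0.77. Hspa8, the constitutive HSP70, was at 24.2 and 33.7 rpbp at ZT0 and at 8.1 and 4.8 rpbp at ZT4 (-2.03 ± 0.36, SE, log2 scale, limma, adjusted p = 0.241). Hsp110, its nucleotide exchange factor, was at 6.9 and 8.4 rpbp and then 1.8 and 1.1 rpbp (-1.83 ± 0.38). Both genes passed the adjusted threshold in the 4-library fit. Of the list, Hsp110, Bag3, Stip1 and Rbm3 were over 6 rpbp only at ZT0, so the filter favoured lower signal at ZT4 for them. Hsp90ab1, the constitutive HSP90, was at 18.1 and 25.7 rpbp at ZT0 and at 9 and 8.3 rpbp at ZT4. The cold-inducible pair had opposite directions: Cirbp was at 5.1 and 7.2 rpbp at ZT0 and at 7.9 and 11.4 rpbp at ZT4, and Rbm3 at 6.1 and 8.3 rpbp and then 5.6 and 4.7 rpbp. Hspa1a and Hspa1b, the classic heat-inducible genes, were at no more than 0.2 rpbp in any of the 4 libraries.

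Among the clock genes, 22 of 34 listed were tested. Of these 9 were higher and 4 lower in both ZT4 libraries (21.8% and 16.5% of all genes), so the share of lower genes was near that of all genes, and 8 higher and 2 lower had an unadjusted p under 0.05 (4.31% and 3.5% of all genes). Nr1d2, Dbp, Por and Upp2 were over 6 rpbp only at ZT4 and Npas2 only at ZT0. The filter thus favoured the direction seen for these genes. Of the activators, Npas2, a partner of BMAL1 akin to CLOCK, was at 10.4 and 6.9 rpbp at ZT0 and at 0.8 and 3.2 rpbp at ZT4 (-1.79 ± 0.38, SE, log2 scale, limma, adjusted p = 0.244), with no overlap. Arntl was at 8 and 10.1 rpbp and then 3.2 and 9.4 rpbp, so its libraries overlapped, and Clock was at 9.8 and 13.3 rpbp and then 11.2 and 12.9 rpbp.

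Arntl and Nfil3 are the genes for which the REV-ERB and ROR receptors are textbook regulators, and their promoters held the receptors' element TAGGTCA, which 78 of 2661 tested genes with a promoter (2.93%) and 856 of 32851 promoters (2.61%) held. No other tested clock-list gene with a promoter held TAGGTCA. Among these genes the E-box CACGTG was found for Tef alone (11.7% of tested genes with a promoter held it), and the D-box TTATGNAA for none. The windows of Arntl and Nfil3 are shown because the receptor genes Nr1d1 and Nr1d2 were among those with higher signal at ZT4. Capitals mark TAGGTCA, which lies on the opposite strand in Nfil3.
Arntl, chr7:113207516-113207560, plus strand: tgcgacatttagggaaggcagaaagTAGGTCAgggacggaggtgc
Nfil3, chr13:52981020-52981076, minus strand: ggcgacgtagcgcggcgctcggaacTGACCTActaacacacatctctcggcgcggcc

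Nr1d1, which encodes the repressor REV-ERBα, was at 6.3 and 11.9 rpbp at ZT0 and at 37.6 and 30.6 rpbp at ZT4 (1.85 ± 0.37, SE, log2 scale, limma, adjusted p = 0.241). Both ZT4 libraries lay well above both at ZT0, and the gene passed the adjusted threshold in the 4-library fit. Nr1d2, encoding REV-ERBβ, was at 2.2 and 3.4 rpbp and then 7.4 and 5.7 rpbp. Of the opposing ROR activators, Rora was at 9.1 rpbp in both ZT0 libraries and at 12.3 and 12 rpbp at ZT4. These 3 genes did not overlap between time points. Their target Nfil3, a repressor of D-box genes, overlapped (14.2 and 13.8 rpbp, then 10.1 and 15.3 rpbp).

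The PAR bZIP activators bind the same D-box that Nfil3 represses. Dbp was at 2.3 and 3.6 rpbp at ZT0 and at 23.2 and 6.2 rpbp at ZT4 (1.76 ± 0.49, SE, log2 scale, limma, adjusted p = 0.418), and its 2 ZT4 libraries differed widely from each other. Tef was at 5.7 and 9.4 rpbp and then 20.1 and 9.9 rpbp, with the ZT4 values again higher in replicate 1. Hlf overlapped (3.6 and 6.9 rpbp, then 8.6 and 6.8 rpbp). Of the repressors, Cry2 was at 6.7 and 9.4 rpbp at ZT0 and at 13.7 and 11.3 rpbp at ZT4 (0.59 ± 0.22), and Per2 overlapped (6.6 and 9.3 rpbp, then 9.2 and 4.4 rpbp). Per1, Per3 and Cry1 stayed under 6 rpbp in all 4 libraries and were not tested; Per3 was at 0.6 and 1.3 rpbp at ZT0 and at 5.9 and 0.9 rpbp at ZT4.

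The clock-driven output genes held the largest clock-list differences. Upp2, uridine phosphorylase 2, was at 3.3 and 5.4 rpbp at ZT0 and at 47.1 and 33.4 rpbp at ZT4, a difference of 2.95 ± 0.61 (SE, log2 scale, limma, adjusted p = 0.241). Inmt, an N-methyltransferase, was at 4.4 and 19.4 rpbp and then 74.7 and 34.4 rpbp, and Por, the electron donor of microsomal cytochromes P450, at 3.5 and 4.9 rpbp and then 16.2 and 13.7 rpbp. Alas1, the rate-limiting enzyme of heme synthesis, had the opposite direction, at 95.7 and 41 rpbp at ZT0 and at 19.5 and 11.5 rpbp at ZT4 (-1.99 ± 0.61). Bhlhb2, the repressor DEC1, was at 19 and 20.1 rpbp and then 13.6 and 7.2 rpbp. The kinases Csnk1d and Gsk3b and the ubiquitin ligase subunit Btrc overlapped between time points and differed by -0.13 to 0.03 on the log2 scale. The direction of Btrc (0.03) turned negative (-0.02) when libraries were rescaled by the median ratio.

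**Figure D3:**
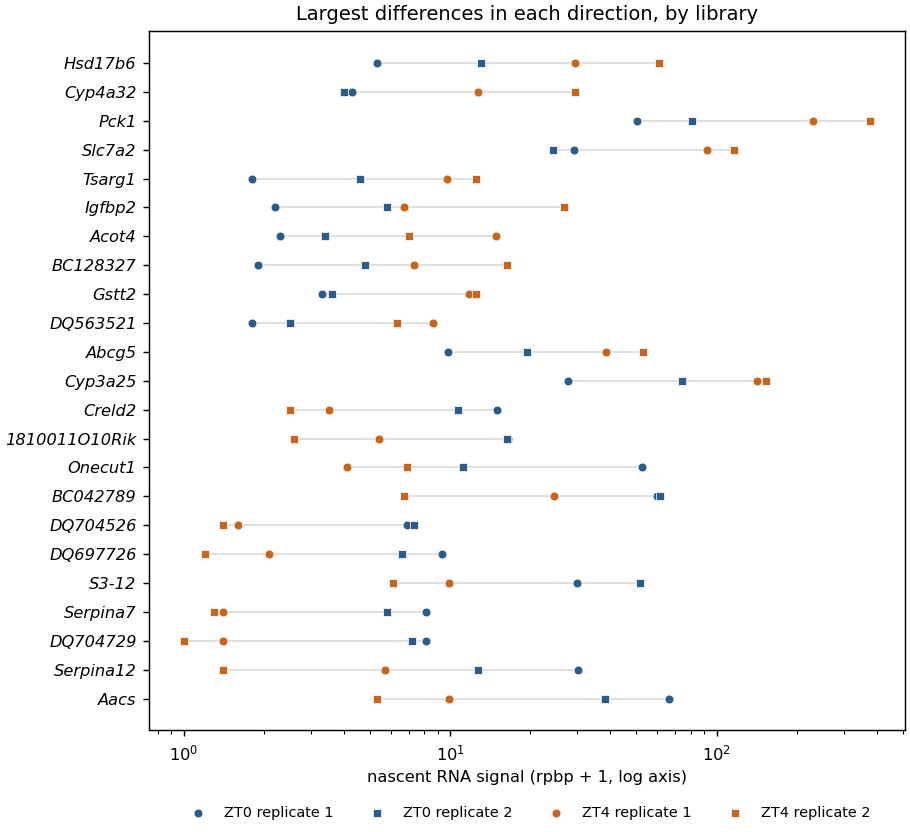
Nascent RNA signal (x axis, rpbp plus 1, log axis) in each of the 4 libraries for the genes with the largest differences in each direction outside the clock lists that are described in the text; blue marks ZT0, orange ZT4, circles replicate 1 and squares replicate 2. The pairs do not overlap by the rule that chose the genes, and the spread within a pair is widest for Onecut1, Serpina12 and Igfbp2.

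Outside the clock lists, the largest differences were picked from genes with an unadjusted p under 0.05 and no overlap, since none passed the adjusted threshold. Of those picked, Serpina7, Serpina12, Onecut1, 1810011O10Rik, Creld2, DQ704729, DQ697726 and DQ704526 were over 6 rpbp only at ZT0. Gstt2, Cyp4a32, Igfbp2, Tsarg1, Acot4, BC128327 and DQ563521 were over 6 rpbp only at ZT4. For all of these the filter favoured the direction seen. Aacs, the acetoacetyl-CoA synthetase that feeds ketone bodies into lipid synthesis, was at 65.6 and 37.3 rpbp at ZT0 and at 8.9 and 4.3 rpbp at ZT4 (-2.80 ± 0.49, SE, log2 scale, limma, adjusted p = 0.241). Serpina7, thyroxine-binding globulin, was at 7.1 and 4.8 rpbp and then 0.4 and 0.3 rpbp, and had the smallest adjusted p of all genes, 0.139, but passed the signal threshold only through replicate 1 of ZT0. S3-12, the lipid droplet protein perilipin 4, was at 28.9 and 50.8 rpbp and then 8.9 and 5.1 rpbp. Serpina12, the serpin vaspin, was at 29.2 and 11.7 rpbp at ZT0 and at 4.7 and 0.4 rpbp at ZT4. Onecut1, the hepatocyte factor HNF6, was at 51.6 and 10.2 rpbp and then 3.1 and 5.9 rpbp, with the ZT0 libraries far apart. BC042789 was at 58.9 and 60.3 rpbp and then 23.5 and 5.7 rpbp, and 1810011O10Rik at 15.5 and 15.3 rpbp and then 4.4 and 1.6 rpbp. DQ704729, DQ697726 and DQ704526 are clone-named entries of 42 to 59 bases within 2569 bases of chromosome 6 (mm9), so they are not independent, and few reads can fall on so short an entry. They lie inside BC091771, which itself was at 40.5 and 62.4 rpbp at ZT0 and at 61.4 and 81.5 rpbp at ZT4, and without strand or isoform counts the reads of overlapping entries cannot be told apart.

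On the higher side, Pck1 led in signal: this cytosolic phosphoenolpyruvate carboxykinase, which controls glucose production, was at 49.3 and 79.6 rpbp at ZT0 and at 229.6 and 376.6 rpbp at ZT4 (2.21 ± 0.39, SE, log2 scale, limma, adjusted p = 0.241). Slc7a2, a transporter of cationic amino acids, was at 28.1 and 23.4 rpbp and then 91.1 and 115.8 rpbp. Hsd17b6, a hydroxysteroid dehydrogenase, was at 4.3 and 12.1 rpbp and then 28.5 and 59.6 rpbp, and Cyp3a25, a cytochrome P450, at 26.8 and 73.5 rpbp and then 140.6 and 152.2 rpbp. Gstt2, a glutathione transferase, had close replicates, at 2.3 and 2.6 rpbp at ZT0 and at 10.8 and 11.5 rpbp at ZT4. Cyp4a32 (3.3 and 3 rpbp, then 11.7 and 28.5 rpbp) belongs to a family of near-identical genes whose reads the counting could split. Igfbp2 was at 1.2 and 4.8 rpbp and then 5.7 and 25.8 rpbp. Tsarg1 overlaps Spata3 and cannot be told from it, and BC128327 (0.9 and 3.8 rpbp, then 6.3 and 15.3 rpbp) and DQ563521 (0.8 and 1.5 rpbp, then 7.6 and 5.3 rpbp) are short clone-named entries.

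Fat synthesis genes were lower at ZT4 more often than higher. Of 20 tested, 10 were lower and 3 higher in both libraries (16.5% and 21.8% of all genes), 6 lower and 2 higher had an unadjusted p under 0.05 (3.5% and 4.31% of all genes), and the median was -0.49. Of the lower genes, Acaca and Acacb were over 6 rpbp only at ZT0, so the filter favoured lower signal at ZT4 for them. Thrsp, the lipogenic spot 14 protein, was at 36.7 and 47.9 rpbp at ZT0 and at 22.4 and 3.6 rpbp at ZT4 (-2.05 ± 0.62, SE, log2 scale, limma, adjusted p = 0.467). Without replicate 1 of ZT4 it was the only gene with an adjusted p under 0.05, at -3.22 and an adjusted p of 0.0212, and its adjusted p under the other alternatives was 0.259 to 1. Pklr, the liver pyruvate kinase, was at 74.8 and 44.5 rpbp and then 25.9 and 7.7 rpbp (-1.94 ± 0.49). Fasn, the fatty acid synthase, was at 113.9 and 156.2 rpbp at ZT0 and at 54.2 and 22 rpbp at ZT4. Scd1, the stearoyl-CoA desaturase, was at 66.6 and 86.1 rpbp and then 25.6 and 20.8 rpbp, and Acly, which makes cytosolic acetyl-CoA, at 34.2 and 30.5 rpbp and then 18.8 and 16.9 rpbp.

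The transcription factors of this pathway were not lower in both ZT4 libraries. Srebf1 overlapped, at 72.4 and 111.3 rpbp at ZT0 and at 90.9 and 54.1 rpbp at ZT4. Mlxipl, the glucose-sensing factor ChREBP, was higher in both ZT4 libraries, at 128 and 166 rpbp and then 214.7 and 195.7 rpbp (0.49 ± 0.25). Fads2 and Elovl2, which make long polyunsaturated fatty acids, were also higher, Fads2 at 22.2 and 32.9 rpbp and then 43.9 and 43.4 rpbp, and Elovl2 at 7.5 and 13.4 rpbp and then 18.2 and 25.3 rpbp.

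In the cholesterol list 13 were tested, 3 were lower and 0 higher in both ZT4 libraries (16.5% and 21.8% of all genes, so the share of lower genes was near that of all genes), 2 had an unadjusted p under 0.05 (both lower, 3.5% of all genes), and the median was -0.24. The lower genes, Fdps, Lss and Ebp, were over 6 rpbp only at ZT0, so the filter favoured lower signal at ZT4 for them. Fdps, the farnesyl diphosphate synthase, was at 5.2 and 6.9 rpbp at ZT0 and at 1 and 1.1 rpbp at ZT4 (-1.77 ± 0.53, SE, log2 scale, limma, adjusted p = 0.467). Insig1, which retains the SREBP pathway in the ER, overlapped, at 20.1 and 51.6 rpbp and then 17 and 24.6 rpbp.

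Glucose use and glucose production were held in separate lists, whose difference was not tested. Of 12 tested genes of glucose use and glycogen, 5 were lower and 1 higher in both ZT4 libraries (16.5% and 21.8% of all genes), 6 overlapped, and 4 had an unadjusted p under 0.05, all lower (3.5% of all genes). Ppp1r3b, which directs a phosphatase to glycogen, was at 65.5 and 101.8 rpbp and then 37.8 and 22.5 rpbp (-1.45 ± 0.42, SE, log2 scale). Pygl, the liver glycogen phosphorylase, which breaks glycogen down, was at 44.5 and 43.4 rpbp and then 27.6 and 21 rpbp. Of 14 tested genes of gluconeogenesis and fasting signalling, 5 were higher and 2 lower in both libraries (21.8% and 16.5% of all genes), 7 overlapped, and 4 had an unadjusted p under 0.05, all higher (4.31% of all genes). Besides Pck1, Sds, the serine dehydratase, was at 25.4 and 19.6 rpbp at ZT0 and at 41 and 71 rpbp at ZT4 (1.24 ± 0.44), and Irs1, an insulin receptor substrate, at 17 and 22 rpbp and then 36.2 and 28.7 rpbp. G6pc, the final enzyme of glucose release, overlapped (112.4 and 119 rpbp, then 86.7 and 149 rpbp), and Pdk4 was lower (3.5 and 6.4 rpbp, then 3 and 2.6 rpbp). Pdk4 was over 6 rpbp only at ZT0, so the filter favoured lower signal at ZT4 for it.

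Of 14 tested genes of amino acid breakdown and the urea cycle, 10 were higher and 1 lower in both ZT4 libraries, against 21.8% and 16.5% of all tested genes, with a median of 0.71, and 4 had an unadjusted p under 0.05, all higher. Cps1, which makes carbamoyl phosphate for the urea cycle, was at 131.6 and 177.8 rpbp at ZT0 and at 259.9 and 269.1 rpbp at ZT4. Asl, the argininosuccinate lyase, was at 15.2 and 20.1 rpbp and then 42.1 and 37.5 rpbp (1.14 ± 0.26, SE, log2 scale, limma, adjusted p = 0.248). Arg1, the arginase that releases urea, was at 18 and 50.9 rpbp and then 67.7 and 75 rpbp (1.20 ± 0.55). For Arg1, as for the summed hepatocyte markers, replicate 1 of ZT0 was the lowest library. Glul, the glutamine synthetase of cells around the central vein, overlapped (16.8 and 21.1 rpbp, then 18.7 and 7.9 rpbp).

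Fatty acid oxidation genes were mixed: of 15 tested members of the PPARα list, 7 were higher and 3 lower in both ZT4 libraries (21.8% and 16.5% of all genes), with a median of 0.05, near that of all genes. Cpt1a, the gate of mitochondrial fatty acid entry, was at 13 and 17.7 rpbp at ZT0 and at 30.2 and 34.4 rpbp at ZT4 (1.04 ± 0.22, SE, log2 scale, limma, adjusted p = 0.244). Acot4, a peroxisomal thioesterase, was at 1.3 and 2.4 rpbp and then 13.9 and 6 rpbp (1.87 ± 0.56). These were the 2 members with an unadjusted p under 0.05. Acot4 was over 6 rpbp only at ZT4, so the filter favoured higher signal at ZT4 for it.

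Of 17 tested bile acid and sterol export genes, 5 were higher and 1 lower in both libraries, a share of higher genes near the 21.8% of all genes, and 3 had an unadjusted p under 0.05, all higher (4.31% of all genes). Abcg5 and Abcg8, neighbouring genes whose products form the sterol exporter, had like values: Abcg5 was at 8.8 and 18.5 rpbp at ZT0 and at 37.6 and 52.1 rpbp at ZT4 (1.71 ± 0.37, SE, log2 scale, limma, adjusted p = 0.248), and Abcg8 at 7.5 and 12.4 rpbp and then 22.6 and 40 rpbp (1.54 ± 0.36). Cyp7a1, the rate-limiting enzyme of bile acid synthesis, overlapped, at 5.4 and 10.7 rpbp and then 4.3 and 6.1 rpbp. Of 14 tested xenobiotic genes, 4 were higher and 0 lower in both libraries, again near the 21.8% of all genes that were higher. Cyp1a2, a P450 of drug and caffeine breakdown, was at 4 and 9.8 rpbp at ZT0 and at 31.4 and 13.4 rpbp at ZT4 (1.56 ± 0.55), and Cyp2c44 at 12.7 and 19.2 rpbp and then 36.6 and 41.4 rpbp (1.26 ± 0.31). The receptors of this group, Nr1i2 (PXR), Nr1i3 (CAR) and Ahr, overlapped.

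Of 8 tested glucocorticoid genes, 1 was higher and 3 lower in both libraries (21.8% and 16.5% of all genes), and 0 had an unadjusted p under 0.05 in limma or an adjusted p under 0.05 in the 4-library fit. Dusp1, a MAP kinase phosphatase, was at 36.4 and 42.7 rpbp at ZT0 and at 30.7 and 20.4 rpbp at ZT4, and Zbtb16 was at 8.2 and 12.2 rpbp and then 4.1 and 7.5 rpbp. Of 17 immediate early genes 4 passed the threshold, and only Klf10 among these 4 did not overlap (7.3 and 3.7 rpbp, then 2.7 and 1.4 rpbp). Klf10 was over 6 rpbp only at ZT0, so the filter favoured lower signal at ZT4 for it. Junb overlapped (3.8 and 6 rpbp, then 6.1 and 4.9 rpbp). Of 9 tested acute phase genes, 2 were lower and 1 higher in both libraries, near the shares of all genes: Orm1, the plasma protein orosomucoid, was at 22.5 and 13.8 rpbp and then 6.3 and 3.7 rpbp (-1.67 ± 0.34), Cebpb, its activator, at 13.3 and 11.2 rpbp and then 8.5 and 4.7 rpbp (-0.84 ± 0.32), and Crp at 33 and 65.9 rpbp and then 69.8 and 80.7 rpbp. The fibrinogen genes Fga, Fgb and Fgg overlapped.

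The remaining lists were small or flat. Of 6 tested genes of NAD synthesis and the sirtuins, Sirt7 alone did not overlap, at 11 and 15.4 rpbp at ZT0 and at 16 and 15.7 rpbp at ZT4, and Sirt5 was at 5.5 and 7.3 rpbp and then 4.1 and 5.5 rpbp. Of the cell cycle list only Gadd45g and Mdm2 were over 6 rpbp, and both overlapped. Ubtf, a factor of RNA polymerase I, was the only tested gene of ribosome biogenesis, at 8.3 and 7.7 rpbp at ZT0 and at 9 rpbp in both ZT4 libraries.

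**Figure D4:**
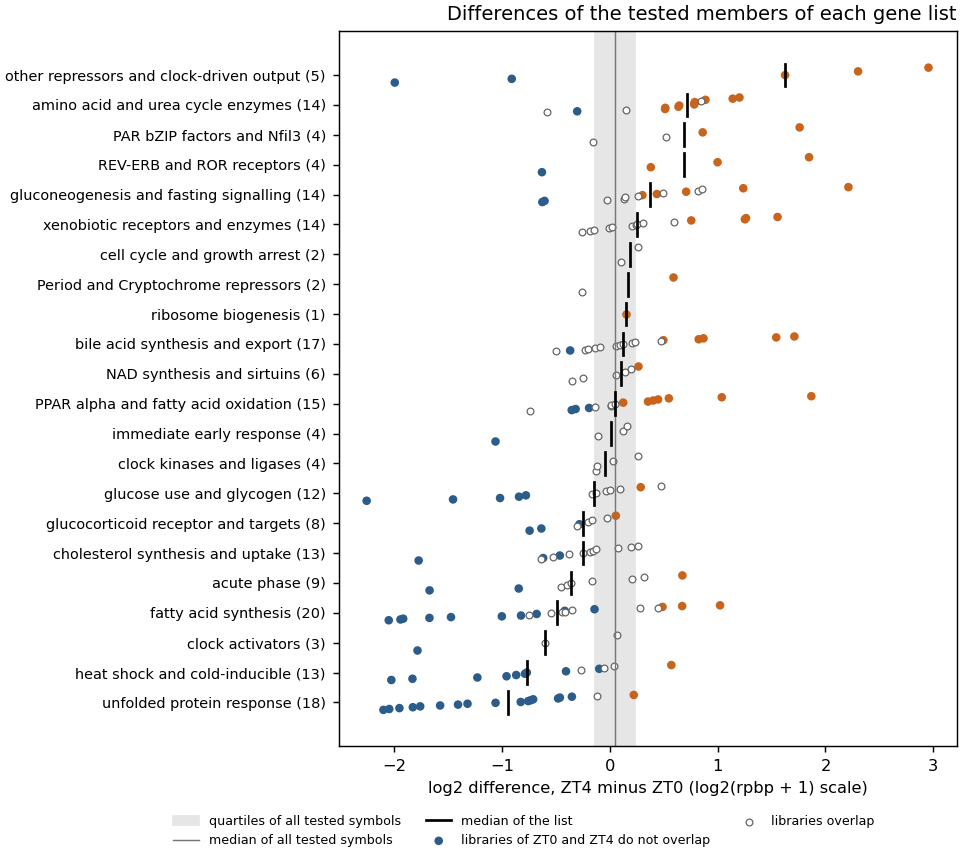
Log2 difference of ZT4 minus ZT0 (x axis, log2(rpbp + 1) scale) for the tested members of 22 gene lists (rows, number tested in brackets); filled points have no overlap between the libraries of ZT0 and ZT4 (orange higher, blue lower at ZT4), open points overlap, black bars are list medians, and the grey band gives the quartiles of all 5226 genes. The unfolded protein response list (median -0.94) lies lowest and the clock-driven output list (median 1.63, 5 genes) highest.

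To set the first hours of light beside those of dark, the change from ZT0 to ZT4 was compared with that over the first 4 hr of dark, from ZT12 to ZT16. The 2 intervals share no library. The changes differed for 28 genes (limma on the difference of the 2 changes, adjusted p under 0.05, 0.536% of those tested). In 15 of these the change was higher in light than in dark and in 13 lower, and for all 28 the signs of the 2 changes were opposite. Of the 28 genes, 26 did not overlap between ZT0 and ZT4, against 38.3% of all tested genes. The test that chose them contains the change from ZT0 to ZT4, so this count and the opposite signs are partly built in. At an unadjusted p under 0.05 the count was 825.

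Upp2 differed most, by 5.75 ± 0.87 (SE, log2 scale, adjusted p = 0.0357): it was higher by 2.95 after 4 hr of light and lower by 2.80 after 4 hr of dark, when it went from 132.6 and 113.5 rpbp at ZT12 to 7.2 and 37.6 rpbp at ZT16. Among the other genes higher in light, Nr1d1 differed by 4.18 ± 0.52, at 9.4 and 15.1 rpbp at ZT12 and at 1 and 2.3 rpbp at ZT16. Pck1 (3.68 ± 0.55) was at 630.4 and 654.7 rpbp at ZT12 and at 162.9 and 327.3 rpbp at ZT16, so that its ZT12 signal was above that of ZT4. Abcg5 (3.66), Gstt2 (3.17), Asl (2.98) and Cpt1a (2.17) had the same signs. In the other direction, Aacs differed by -4.30 ± 0.69 (adjusted p = 0.0457) and was at 3.9 and 9.2 rpbp at ZT12 and at 13.6 and 26.4 rpbp at ZT16.

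Orm1 and Serpina7 were among the 13 genes whose change was lower in light. Orm1 differed by -3.91 ± 0.48 and went from 7.8 and 11.8 rpbp at ZT12 to 57.7 and 41.6 rpbp at ZT16. Serpina7 differed by -2.84 ± 0.39, and it was at 0 in both ZT12 libraries and at 0.8 and 0.1 rpbp at ZT16, so the larger of its 2 changes was that in light. Of the named genes, Serpina7, Lrg1 and Cxcl1 were over 6 rpbp only at ZT0, and Upp2 and Gstt2 only at ZT4. Such genes were tested only because of that time point, and their calls are to be read as descriptions. A further 4 of the 13, C3, Hpx, Lrg1 and the chemokine Cxcl1, were named after their values were seen. C3, the central complement protein, was at 322.3 and 190.3 rpbp at ZT0 and at 44.5 and 77.2 rpbp at ZT4, and then at 51.3 and 98.3 rpbp at ZT12 and at 204.9 and 226.4 rpbp at ZT16. Hpx, the heme scavenger hemopexin, was at 53.5 and 46.9 rpbp at ZT0 and at 30.9 and 36.1 rpbp at ZT4, against 38.7 and 37.1 rpbp at ZT12 and 148.7 and 110.3 rpbp at ZT16. Lrg1, a secreted acute phase protein, was at 9.3 and 7.9 rpbp and then 3.7 and 2.4 rpbp in light, against 8.8 and 6.5 rpbp and then 16.9 and 16 rpbp in dark. Cxcl1 overlapped in light (5.1 and 7.9 rpbp, then 5.4 and 4.6 rpbp) and was at 5.1 and 5.9 rpbp and then 29.5 and 30.2 rpbp in dark.

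None of the 18 tested unfolded protein response genes was among the 28, which at 0.536% of all genes says nothing about the list. For Hspa5 the change was -1.95 in light and 0.74 in dark, and the adjusted p of the difference was 0.234. With the libraries rescaled by the median ratio, 0 of the 5226 genes passed and the smallest adjusted p was 0.0527, and 0 passed with a replicate block or without the filter on signal. Without any single library of ZT0 or ZT4, 0 or 1 gene passed.

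**Figure D5:**
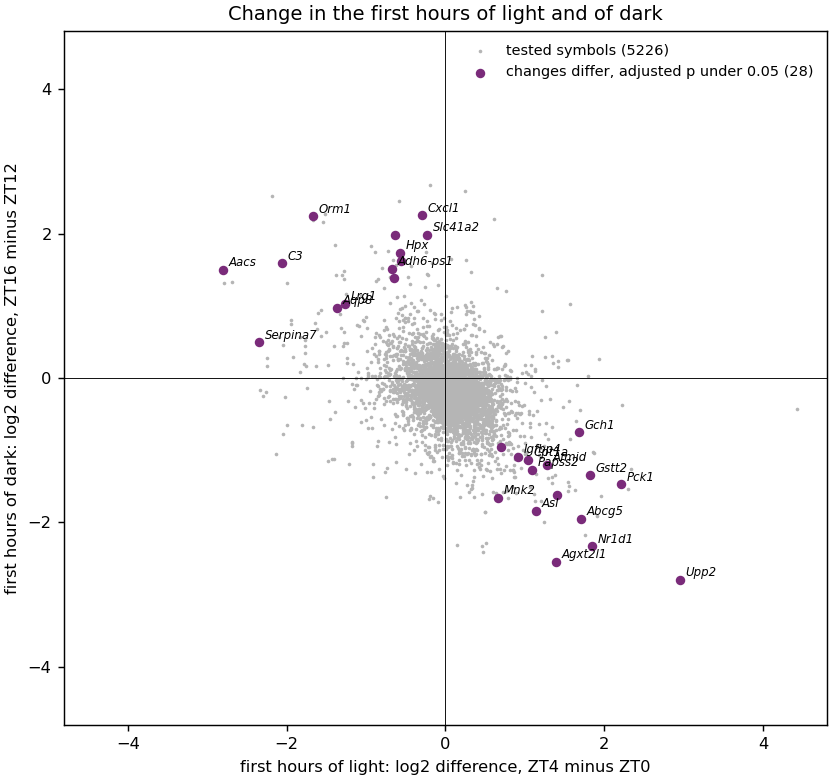
Log2 difference over the first 4 hr of light (x axis, ZT4 minus ZT0) against that over the first 4 hr of dark (y axis, ZT16 minus ZT12), both on the log2(rpbp + 1) scale, for 5226 genes (grey); purple points are the 28 genes whose changes differed, and clone-named entries are not labelled. All 28 lie in the upper left or lower right, Upp2 farthest.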

How the data were processed

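Liver nuclei were purified, chromatin-bound RNA was extracted, and polyadenylated RNA was removed, per the labels. Reads were aligned to mm9 with TopHat after CASAVA 1.7, as the submitters' processing notes give. The deposited signal is in rpbp: the authors counted reads over all exons of a gene regardless of isoform, divided by exon length and scaled each library to the same number of uniquely mapped reads. Values carry 1 decimal, keep no read counts and use no strand, so overlapping and antisense genes, and near-identical copies, cannot be told apart, and depth per library cannot be had from them. Most nascent reads fall in introns and are not used. The table also holds the authors' rhythm scores, phases and p-values, which were not used.

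Values were compared on log2(rpbp + 1), with genes over 6 rpbp in at least 1 of 4 libraries, by limma 3.58.1 (R 4.3.3) over the 8 libraries run on 1 lane (ZT0, ZT4, ZT12, ZT16), two-sided, Benjamini-Hochberg adjusted over 5226 genes. ZT8 and ZT20 were run on 2 lanes and enter only an alternative. The pseudocount of 1 understates fold changes of low genes. P-values measure the spread between libraries. Of 21490 symbols, 14195 matched GENCODE M1, and 23 that look like dates were not named. Genes named are the 12 largest differences in each direction (unadjusted p under 0.05, no overlap), every tested clock gene, and the 2 largest of each other list; further list members are given for the biology. Some genes that these rules would name are not reported here. The time points, the 22 gene lists, the 8 marker lists and the motifs were chosen with earlier results of these data known. The fit was tested on simulated data. Python 3.11.15 with pandas 2.3.3 and matplotlib 3.10.9 was used. Alternatives were another pseudocount and threshold, rescaling, GC trend removal, 1 symbol per locus, a variance trend, a replicate block, all 12 libraries, the 4 libraries alone, and leaving out each library.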

Additional observations from a re-analysis of the deposited data

Results flagged for a closer look

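The genes below were picked out because their change over the first hours of light differed from that over the first hours of dark in limma, and they are those of the 28 that the rule for named genes gives. Values are the light change minus the dark change on the log2(rpbp + 1) scale. The difference was -4.30 for Aacs, -3.91 for Orm1 and -2.84 for Serpina7. It was 2.17 for Cpt1a, 2.98 for Asl, 3.17 for Gstt2, 3.66 for Abcg5, 3.68 for Pck1, 4.18 for Nr1d1 and 5.75 for Upp2. All 10 had opposite signs in light and dark, which a choice by this difference favours. The adjusted p was 0.0457 for Aacs and 0.0357 for the other genes. No gene of the 28 passed after rescaling by the median ratio, with a replicate block or without a filter on signal (0 genes each), and 0 or 1 gene passed without any single library of ZT0 or ZT4. Serpina7 was tested only because of its signal at ZT0, and Upp2 and Gstt2 only because of theirs at ZT4.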

How the results depend on the processing

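The count of genes with an adjusted p under 0.05 between ZT4 and ZT0 was 0 in the 8-library fit and under each alternative except 2. It was 50 (16 higher, 34 lower) on the 4 libraries alone, and 0 to 1 (0 higher, 0 to 1 lower) without any single library, the 1 being Thrsp without replicate 1 of ZT4. On the 4 libraries alone the count was itself 39 with a pseudocount of 0.1, 91 over 12 rpbp, 6 over 3 rpbp, 0 after rescaling, 0 after GC trend removal, 110 with a variance trend, and 0 to 7 without any single library. The cause was not tested.

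The 28 genes whose light and dark changes differed became 0 without a filter on signal, 0 after rescaling, 16 after GC trend removal, and 0 to 1 without any single library. The 477 genes apart by over 1.5-fold became 285 over 12 rpbp and 885 without a filter, where other genes enter or leave, and 534 to 962 without any single library. The median log2 difference of all genes was 0.05 and became 0.00014 after rescaling, and the share of unadjusted calls that were higher moved from 55.1% to 50.9%.

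The paper describes the replicates as independent time courses, so the replicate number may mark the course that a library came from. Deviations of same-numbered libraries correlated at -0.141 to 0.181 between time points. Such weak correlations over all genes do not show that the replicate number can be ignored. With a replicate block, 0 genes passed for ZT4 against ZT0 and 0 for the difference of changes, and 9 on the 4 libraries alone.

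Of the 72 named genes, 11 turned in sign somewhere. Btrc was -0.0206 after rescaling and -0.056 after GC trend removal. Without any single library, the log2 differences of genes that turned ranged from -1.25 to 0.0573 for Arntl, -0.158 to 0.21 for Btrc, -0.135 to 0.27 for Clock, -0.263 to 0.00874 for Csnk1d, -0.367 to 0.889 for Gadd45g, -0.266 to 0.0197 for Gsk3b, -1.29 to 0.0248 for Insig1, -0.113 to 0.431 for Junb, -0.0634 to 0.274 for Mdm2, -0.434 to 0.12 for Nfil3, -0.712 to 0.205 for Per2. In Btrc, Clock and Mdm2 further single libraries gave -0.133, -0.0266 and -0.00982. Depth is unknown per value, and 2 libraries a group limit every test.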

Other observations

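The genes below that passed the adjusted threshold on the 4 libraries alone were named after their values were seen and belong to no list used above. These calls became 0 after rescaling by the median ratio. Bcl6, a transcriptional repressor, was at 8.4 and 10.5 rpbp at ZT0 and at 27.6 and 23.4 rpbp at ZT4. Klb, a co-receptor of FGF hormones, was at 2.1 and 3.8 rpbp and then 10.6 and 10.1 rpbp. Gch1, which starts tetrahydrobiopterin synthesis, was at 3.4 and 4.5 rpbp and then 13.9 and 15.8 rpbp. Lower at ZT4 were Slc35b1, the ER nucleotide transporter, at 9.8 and 10.8 rpbp and then 3.8 and 2.4 rpbp, and Ero1lb, the oxidase that recharges disulphide isomerases, at 10.7 and 7.1 rpbp and then 2.6 and 2.3 rpbp. C4a, a complement protein with near-identical copies, was at 53.5 and 38.4 rpbp and then 14 and 14.5 rpbp, and Scp2, the sterol carrier protein, at 202.2 and 119.8 rpbp and then 49.3 and 54.5 rpbp. In the 8-library fit by limma the adjusted p of each of these genes was over 0.05. Klb and Gch1 passed the signal threshold only at ZT4, and Slc35b1 and Ero1lb only at ZT0, so the filter favoured the direction seen for them.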
